A study of Homo sapiens with 18 samples.

Results

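The untreated state of SKOV3 and A2780, 2 human ovarian cancer cell lines, was compared across all genes. The comparison used the 6 libraries of solvent-treated cells, 3 of SKOV3 and 3 of A2780, out of 18 libraries in the series. The other 12 libraries came from the same lines given daphnetin, a plant coumarin, at 20 or 40 mg/L. Every library was labelled as wild-type ovarian cancer cells, with no introduced allele, and the cells compared here had received DMSO, the solvent, and no other agent. The growth protocol names both lines and then both media. Read in that order, A2780 grew in DMEM with 10% fetal bovine serum and SKOV3 in RPMI-1640 with 15%, so the line, its medium and its serum cannot be told apart in any difference given here. Each line is a single established culture line and stands for no other ovarian tumour.

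SKOV3 is widely used as a model of ovarian cancer with amplified ERBB2, the HER2 receptor tyrosine kinase. A2780 has often been described as poorly differentiated. Epithelial cells build keratin filaments, desmosomes and tight junctions, and ovarian and fallopian epithelia are specified by factors such as PAX8 and SOX17. p53 activates genes of cell cycle arrest, apoptosis and its own inhibitor MDM2. NRF2, held down by KEAP1, activates genes that supply glutathione, thioredoxin and NADPH. These reductants, with GPX4 and the ubiquinone reductase AIFM2, limit the iron-dependent lipid peroxidation called ferroptosis. NQO1, the quinone reductase in the title of the series, is an NRF2 target.

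The A2780 libraries held 31513559 to 36049532 counts and the SKOV3 libraries 36629415 to 43633963. Levels are CPM, counts scaled to a common library total, on TMM-scaled library sizes. Log2 profiles correlated at 0.991 to 0.993 between libraries of a line and at 0.737 to 0.745 between lines, a description across genes. The replicates are numbered but are not stated to be separate cultures. The p-values therefore rest on variation among these 3 libraries of each line, part or all of which may be technical. The share of counts from the mitochondrial genome was 13.55% to 15.72% in A2780 against 4.36% to 5.23% in SKOV3.

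Low levels were not alike in both lines. Of 1795 genes above 100 CPM in A2780, none was below 0.1% of that level in SKOV3, 1 was below 1%, and the lowest stood at 0.734% (TEX15). Of 1976 genes above 100 CPM in SKOV3, 27 were below 0.1% in A2780 and 83 below 1%. Over the 40 genes that were lowest in SKOV3, each SKOV3 DMSO library held 3.3% to 3.51% of the summed A2780 level. The same 40 genes stood at 3.33% to 3.65% in the SKOV3 libraries at 20 mg/L and at 1.74% to 1.95% at 40 mg/L. The matching sum for A2780 ran from 0.0618% to 0.0949% over all 9 A2780 libraries. The part of this low level in the results was not tested. It bears on genes lower in SKOV3: 19 of the 88 named genes called lower had a SKOV3 level under 3% of that in A2780.

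Of 20 immune markers, 7 were expressed enough to be tested, 2 called higher and 5 lower in SKOV3, with a median log2 of -2.67. Over all genes tested, 42.3% were called higher and 38.7% lower. PTPRC, the pan-leukocyte antigen CD45, had no count in A2780 and 0.165 CPM in SKOV3, and CD3D, CD2 and CD79A of lymphocytes were at 0 in all 6 libraries. CD4, of T helper cells and macrophages, stood at 7.4, 8.96 and 7.66 CPM in A2780 and averaged 0.231 CPM in SKOV3 (log2 -5.12). CD8A, CD14, NKG7 and CD163 were also called lower in SKOV3, all at about 1 CPM or less in A2780. The list summed to 14.7 to 16.9 CPM in A2780 and 71.1 to 78 CPM in SKOV3, where CD68 gave 72 CPM and shares 81.7% of its exon length with another gene on its strand. Of the endothelial markers, EMCN was at 0 in every library and VWF, CDH5 and TEK stayed under 0.1 CPM, while PECAM1 reached 2.84 to 3.33 CPM in SKOV3. Of the 16 fibroblast and endothelial markers, 11 were tested, with 5 called higher and 6 lower in SKOV3. Fibroblast-type matrix genes were present in both lines, as described below with the mesenchymal genes. COL3A1, DCN and LUM were higher in A2780 and COL1A1 was higher in SKOV3.

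Most genes differed between the lines. Of 21703 genes tested with edgeR's quasi-likelihood test, 17590 (81.0%) were called at an adjusted p under 0.05, 9182 (42.3%) higher and 8408 (38.7%) lower in SKOV3. With a difference of at least 2-fold as well, 5262 genes (24.2%) were higher and 4587 (21.1%) lower in SKOV3. The median log2 difference, SKOV3 minus A2780, was 0.048 over all genes tested. TMM scaling itself places the centre near 0, so this median cannot show whether the lines differed by a common shift. All counts of lists, above and below, are to be read against these shares, and a list near them holds no result of its own. The libraries of the 2 lines did not overlap in 17814 of the 21703 genes tested and in 97.5% of those called. Most list members were also named only if they did not overlap. A lack of overlap in a named gene is therefore a description and no result of its own. Every log2 value is SKOV3 minus A2780 with the standard error (SE) of the fit.

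Among genes of at least 50 CPM in the higher line, those furthest below A2780 in SKOV3 were CYSLTR2, a leukotriene receptor, and TEX15, a germ cell gene. CYSLTR2 averaged 93.1 CPM in A2780 against 0.215 CPM in SKOV3 (log2 -8.76, SE 0.21). TEX15 averaged 173 and 1.26 CPM (log2 -7.12, SE 0.10). The T-box repressor TBX2 averaged 521 CPM in A2780 against 5.89 CPM in SKOV3 (log2 -6.47, SE 0.09), and the homeobox factor LBX1 59 and 0.552 CPM (log2 -6.73, SE 0.13). No library of SKOV3 reached the A2780 range for any of them. In the other direction, the ETS factor ETS1 had 2 counts over the 3 A2780 libraries and 80.1 CPM in SKOV3, a ratio of 4096 with an exact 95% counting interval of 1133 to 33823. Such intervals cover counting error only and take each count as independent. Most counts from 1 to 12 were even (74.4% to 76.2%), so small counts may not be independent and these intervals may be too narrow.

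A total of 61 genes had no count in any A2780 DMSO library and averaged at least 10 CPM in SKOV3. No gene met the reverse rule. That rule asks for no count in SKOV3, where none of 1795 genes above 100 CPM in A2780 fell below 0.1% of that level. The 61 and 0 are therefore not on equal terms, and the part of the low level described above in this contrast was not tested. The matrix collagen COL8A1 stood at 79.2, 77.6 and 78.9 CPM in the 3 SKOV3 libraries, at least 887-fold above a floor of 3 counts per A2780 library. The caveolar gene SDPR averaged 74.7 CPM (at least 843-fold), the chemokine CXCL1 66 CPM (at least 745-fold), the gelatinase MMP2 55.9 CPM (at least 631-fold) and complement factor I, CFI, 38.7 CPM (at least 437-fold). These 5 genes were silent at this depth in A2780 and well measured in every SKOV3 library.

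ERBB2 checked the labels of the lines. It stood at 62.9, 62.5 and 63.7 CPM in A2780 and at 2717, 2592 and 2694 CPM in SKOV3. All SKOV3 libraries were far above all A2780 libraries, with a 42.3-fold difference (log2 5.40, SE 0.07, adjusted p = 1.45e-35). KRT19, an epithelial keratin, stood at 0.351, 0.111 and 0.257 CPM in A2780 and at 153, 164 and 162 CPM in SKOV3 (log2 9.38, SE 0.13). Both marker genes therefore separated the libraries as their labels do.

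The genes beside ERBB2 on chromosome 17 (17q12, build GRCh38, ERBB2 at chr17:39687914-39730426) were high in SKOV3 as well. Of 62 other genes tested within 1 Mb, 44 were called higher and 8 lower, with a median log2 of 0.81 beside 0.048 over all genes. Among genes with counts in both lines, the highest differences lay within about 100 kb of ERBB2. PPP1R1B, which encodes the phosphatase inhibitor DARPP-32, averaged 0.91 CPM in A2780 against 2476 CPM in SKOV3 (log2 11.41, SE 0.11). MIEN1, a membrane-anchored migration factor, averaged 12.8 and 2022 CPM (log2 7.30, SE 0.08). The adaptor GRB7, which binds HER2, averaged 0.386 and 25 CPM (log2 5.98, SE 0.18), and the cholesterol carrier STARD3 17.5 and 198 CPM (log2 3.51, SE 0.07). Further out the values were mixed: GSDMB at 203 kb had a log2 of 2.45, while RPL19 at 507 kb on the other side (-0.02) and MSL1 at 420 kb (0.03) were not called. LASP1, at 813 kb, was higher (log2 2.88, SE 0.06). PLXDC1, at 600 kb, was lower (4.54 and 0.451 CPM, log2 -3.31, SE 0.24), as was the growth factor binding protein IGFBP4 at 741 kb (1.18 and 0.0795 CPM, log2 -3.81, SE 0.47). The keratin pseudogene KRT223P, at 1010 kb, had no count in A2780 and averaged 2.45 CPM in SKOV3. Copy number was not measured here. MIEN1 (chr17:39728496-39730787) overlaps the end of ERBB2 on the opposite strand and shares 5.53% of the exon length of ERBB2. The split of reads between MIEN1 and ERBB2, and so the MIEN1 value, is therefore uncertain.

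**Figure D1:**
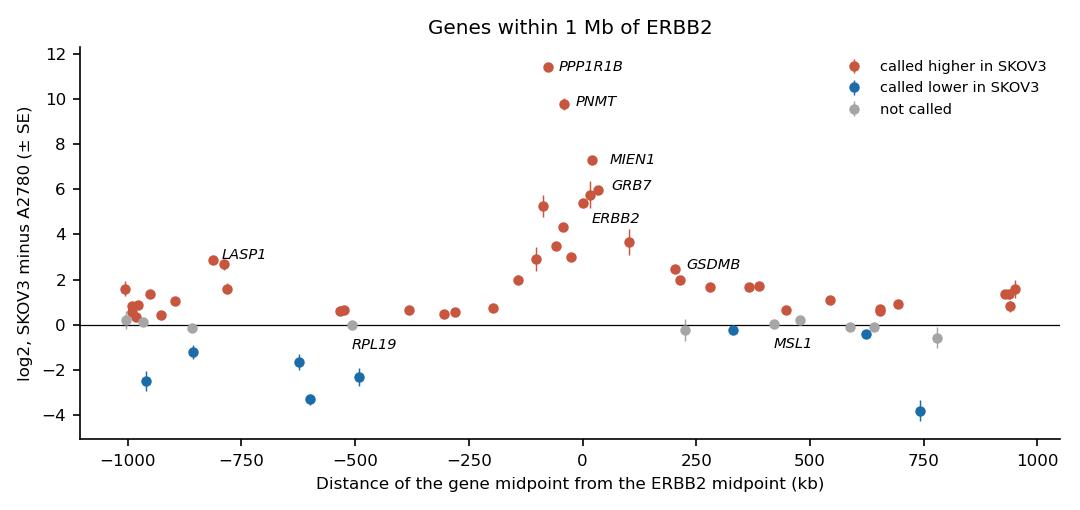
Log2 difference, SKOV3 minus A2780 (points, with SE as bars), of each tested gene with counts in both lines, against the distance of its midpoint from the ERBB2 midpoint in kb. Red points were called higher in SKOV3, blue lower and grey not called; the peak lies within about 100 kb of ERBB2, up to 11.41 for PPP1R1B.

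Transcription factors of ovarian and Mullerian identity were mostly SKOV3 genes. Of 24 on the list, 16 were tested, 11 of them called higher and 4 lower in SKOV3, with a median log2 of 6.65 (5.74 with the gene of no A2780 count at its bound). Of the 24, 5 averaged above 1 CPM in A2780 and 12 in SKOV3, so the filter on low counts favoured calls higher in SKOV3. PAX8, the standard marker of Mullerian epithelium, stood at 0.234, 0.222 and 0.192 CPM in A2780 and at 172, 194 and 169 CPM in SKOV3 (log2 9.66, SE 0.12, adjusted p = 8.32e-36). SOX17, its partner in fallopian and ovarian cancer cells, stood at 0, 0.0555 and 0 CPM in A2780 and at 21.1, 21.6 and 23.5 CPM in SKOV3. SOX17 had only 2 counts in A2780, for a ratio of 1129 with a counting interval of 312 to 9326. MECOM, a zinc finger factor often amplified in ovarian cancer, averaged 0.438 and 434 CPM (log2 9.95, SE 0.11). All 3 factors were near the detection limit in A2780 and abundant in SKOV3.

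Other factors of that list followed both directions. The estrogen receptor ESR1 averaged 0.339 CPM in A2780 against 30.7 CPM in SKOV3 (log2 6.50, SE 0.16). WT1, the marker of serous carcinoma, was at 0 in A2780 and at 0.0912, 0.136 and 0.423 CPM in SKOV3, too low to be tested. The 4 lower members included FOXL2 and MEIS1. FOXL2, the granulosa cell factor, stood at 8.55, 7.93 and 7.82 CPM in A2780 and at 0.182, 0.273 and 0.141 CPM in SKOV3 (log2 -5.35, SE 0.22). The homeobox factor MEIS1 averaged 139 and 28.6 CPM (log2 -2.28, SE 0.06). In both of these the A2780 libraries stood above the SKOV3 libraries without overlap, and most genes tested did not overlap between the lines either.

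Ovarian carcinoma antigens gave 10 called higher and 3 lower in SKOV3 of 13 tested, out of 25 listed, with a median log2 of 5.34. Of the 25, 4 averaged above 1 CPM in A2780 and 13 in SKOV3, so the filter on low counts favoured calls higher in SKOV3. LCN2, an iron-siderophore binding lipocalin, stood at 0.234, 0.222 and 0.192 CPM in A2780 and at 282, 298 and 320 CPM in SKOV3 (log2 10.41, SE 0.12). The protease inhibitor SLPI averaged 71.2 CPM in SKOV3 against 2 counts in A2780, a ratio of 3634 with a counting interval of 1006 to 30010. CD24, a surface sialoglycoprotein, averaged 0.475 and 220 CPM (log2 8.85, SE 0.11). The antigens measured in clinics were low even in SKOV3: MUC16, the CA125 antigen, averaged 3.34 CPM, mesothelin (MSLN) 11.2 CPM, the folate receptor FOLR1 13.7 CPM and WFDC2, the HE4 antigen, 0.356 CPM. The 3 lower members were the retinoic acid carrier CRABP2 (133 and 14 CPM, log2 -3.26, SE 0.07), the calcium-binding S100A1 (log2 -1.89, SE 0.09) and the cancer-testis antigen PRAME (57.2 and 31.8 CPM, log2 -0.85, SE 0.07).

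All 14 keratins tested, of 19 listed, were called higher in SKOV3, with a median log2 of 9.69 (8.38 with the 5 that had no A2780 count at their bounds). Of the 19, 2 averaged above 1 CPM in A2780 and 13 in SKOV3. The 5 with no A2780 count could only be called higher, and the filter favoured that direction in others. The count of 14 is therefore no test of direction. Summed over the list, keratins reached 5.49 to 6.61 CPM in A2780 against 1978 to 2010 CPM in SKOV3. KRT8, the partner of KRT18 in simple epithelia, stood at 1.05, 0.999 and 1.8 CPM in A2780 and at 1084, 1068 and 1085 CPM in SKOV3 (log2 9.73, SE 0.11). KRT18 averaged 0.318 and 304 CPM (log2 9.89, SE 0.11), and KRT7, typical of ovarian and fallopian epithelium, 0.154 and 286 CPM (log2 10.80, SE 0.13). SKOV3 also held keratins of stratified epithelium. KRT5 and its partner KRT14, basal cell keratins, had no count in A2780 and averaged 14.6 and 14.7 CPM in SKOV3, at least 165-fold and 166-fold above the floor. Keratins resemble each other and some have pseudogenes, so the split between single keratins is less certain than their sum. Reads of KRT18 and KRT8 may mix across 16.3% of the exon length of KRT18, on opposite strands.

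Junction and polarity genes were higher in SKOV3 in most members but not all. Of 45 epithelial genes, 40 were tested, of which 29 were called higher and 7 lower in SKOV3 and 4 were not called, with a median log2 of 3.48. DSP, which anchors keratin filaments in desmosomes, stood at 1.4, 1.22 and 1.73 CPM in A2780 and at 2044, 1821 and 2006 CPM in SKOV3 (log2 10.40, SE 0.11, adjusted p = 3.31e-38). LAMB3, a chain of epithelial laminin, averaged 0.281 CPM in A2780 against 442 CPM in SKOV3 (log2 10.63, SE 0.12). EHF, an epithelial ETS factor, had no count in A2780 and 31.4, 30.7 and 34 CPM in SKOV3, at least 361-fold above the floor. These members were almost silent in every A2780 library.

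E-cadherin and EpCAM differed as well, at lower levels. CDH1 stood at 0, 0.0555 and 0 CPM in A2780 and at 8.35, 7.53 and 8.78 CPM in SKOV3, a ratio of 422 with a counting interval of 117 to 3489. EPCAM stood at 2.93, 3.36 and 4.17 CPM in A2780 and at 47.5, 51.4 and 49.4 CPM in SKOV3 (log2 3.83, SE 0.10, adjusted p = 2.49e-27). CDH1 was thus present but modest in SKOV3, below the DSP level by a wide margin. The 7 lower members were CGN, OCLN, TJP3, MARVELD3, PRSS8, AP1M2 and CDS1. The first 4 belong to tight junctions: cingulin (CGN) averaged 196 CPM in A2780 against 63.2 CPM in SKOV3 (log2 -1.63, SE 0.06), occludin (OCLN) 94.3 and 36.9 CPM (log2 -1.35, SE 0.06), and MARVELD3 21.1 and 1.68 CPM (log2 -3.64, SE 0.13). These tight junction transcripts were present in A2780, the line in which DSP and the keratins were near 0. Other tight junction genes took the opposite direction. CLDN1 had 6 counts over the A2780 libraries and 4534 over the SKOV3 libraries, MARVELD2 6 and 640, and CLDN3 4 and 310.

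The promoters of epithelial genes often carry the E-box CAGGTG, the site that the repressors ZEB and SNAI bind. It was searched on both strands in RefSeq promoters of build GRCh38.p14, from 250 bases before to 50 after the start. It occurred in 13 of 26 matched epithelial promoters and in 20.6% of all 35116 promoters. Of the 12 tested genes with a match, 9 were called higher and 3 lower in SKOV3, and of the 12 tested without, 9 and 2. The promoter of DSP, the highest of these genes in SKOV3, and that of AP1M2, an epithelial clathrin adaptor that was lower there (2.33 and 0.54 CPM, log2 -2.10, SE 0.26), are printed to show that the motif stands in members of both directions. The capitals mark CAGGTG or its complement CACCTG. DSP lies at chr6:7541421-7541720 on the plus strand and AP1M2 at chr19:10587263-10587562 on the minus strand.
DSP: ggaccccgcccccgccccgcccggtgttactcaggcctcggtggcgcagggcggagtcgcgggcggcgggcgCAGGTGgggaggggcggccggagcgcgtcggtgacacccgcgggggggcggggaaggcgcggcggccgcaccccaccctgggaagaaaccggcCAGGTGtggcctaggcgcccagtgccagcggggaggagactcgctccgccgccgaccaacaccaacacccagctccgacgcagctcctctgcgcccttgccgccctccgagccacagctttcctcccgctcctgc
AP1M2: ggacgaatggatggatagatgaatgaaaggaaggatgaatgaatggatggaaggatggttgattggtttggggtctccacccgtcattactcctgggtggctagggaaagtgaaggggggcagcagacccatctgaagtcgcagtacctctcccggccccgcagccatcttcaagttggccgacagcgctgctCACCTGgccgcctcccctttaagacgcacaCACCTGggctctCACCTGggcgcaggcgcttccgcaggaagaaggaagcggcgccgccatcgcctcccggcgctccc
A match is a string of letters and does not show a bound site.

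**Figure D2:**
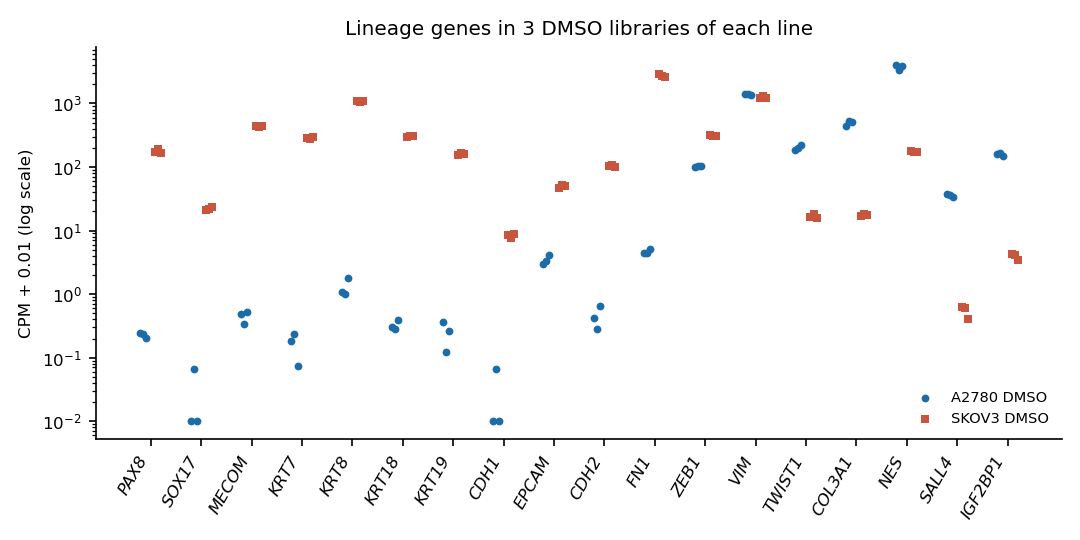
CPM plus 0.01 on a log axis for 18 lineage genes, with 1 point for each DMSO library (blue circles A2780, red squares SKOV3). PAX8, SOX17, the keratins and CDH1 stand near the detection limit in A2780, VIM is close in both lines, and TWIST1, COL3A1, NES, SALL4 and IGF2BP1 are higher in A2780.

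The mesenchymal list did not form the mirror image of the epithelial list. Of 40 genes, 38 were tested, with 24 called higher in SKOV3, 11 lower and 3 not called, and a median log2 of 1.64. Vimentin (VIM), the mesenchymal filament, stood at 1413, 1391 and 1379 CPM in A2780 and at 1225, 1292 and 1238 CPM in SKOV3. The groups did not overlap, but the difference was small (log2 -0.16, SE 0.06, adjusted p = 0.0151), and its call was lost without the filter on low counts (adjusted p = 0.0696) and without SKOV3 replicate 1 (0.113) or 3 (0.114). Both lines were rich in VIM.

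Several mesenchymal genes belonged to SKOV3. N-cadherin (CDH2) stood at 0.41, 0.277 and 0.641 CPM in A2780 and at 102, 106 and 101 CPM in SKOV3 (log2 7.88, SE 0.12). Fibronectin (FN1) averaged 4.64 and 2729 CPM (log2 9.20, SE 0.09). The EMT repressors ZEB1, ZEB2 and SNAI2 were all higher in SKOV3, the line with the higher keratins: ZEB1 averaged 102 and 311 CPM (log2 1.61, SE 0.06) and SNAI2 1.41 and 19.8 CPM (log2 3.81, SE 0.13). ZEB2 averaged 7.07 CPM in SKOV3 against 4 counts in A2780, a ratio of 182 with a counting interval of 70.7 to 668. MMP2, named above, TGFBI (26.7 CPM, at least 301-fold) and the cadherin CDH11 (13.3 CPM, at least 150-fold) had no count in A2780. SKOV3 thus held keratin, N-cadherin and ZEB transcripts in the same cultures. Whether single cells hold both cannot be read from bulk RNA, in which fewer cells of a type and less RNA per cell cannot be told apart.

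Other mesenchymal and matrix genes belonged to A2780. TWIST1, an EMT factor of neural crest and mesoderm, stood at 186, 202 and 221 CPM in A2780 and at 16.2, 18 and 15.5 CPM in SKOV3 (log2 -3.62, SE 0.07). The fibrillar collagen COL3A1 stood at 445, 533 and 505 CPM in A2780 and at 16.8, 18.1 and 17.6 CPM in SKOV3 (log2 -4.82, SE 0.07). The glycoprotein THY1 averaged 58.1 and 4.33 CPM (log2 -3.74, SE 0.11) and periostin (POSTN) 36.7 and 3.8 CPM (log2 -3.27, SE 0.10). The proteoglycans decorin (DCN, 81.3 and 2.46 CPM, log2 -5.04) and lumican (LUM, 47.6 and 3.45 CPM, log2 -3.80) took the same direction. Type I collagen took the opposite one, with COL1A1 at 18.9 CPM in A2780 and 365 CPM in SKOV3 (log2 4.27, SE 0.08) and COL1A2 at 4.76 and 383 CPM (log2 6.33, SE 0.09). The SKOV3 level of COL3A1 and DCN was under 5% of that in A2780. The 16 fibroblast and endothelial markers summed to 735 to 801 CPM in A2780 and 395 to 433 CPM in SKOV3.

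Oncofetal and progenitor genes split by gene, with 14 of 27 tested called higher in SKOV3 and 12 lower, out of 38 listed, and a median log2 of 0.41. LIN28B, which blocks let-7 maturation, stood at 81, 75.5 and 72.4 CPM in A2780 and at 2.35, 2.89 and 2.07 CPM in SKOV3 (log2 -4.98, SE 0.10). The mRNA-binding IGF2BP1 stood at 160, 163 and 149 CPM in A2780 and at 4.2, 4.07 and 3.45 CPM in SKOV3 (log2 -5.33, SE 0.08). SALL4, an embryonic zinc finger factor, averaged 36.2 and 0.538 CPM (log2 -6.07, SE 0.13), the chromatin protein HMGA2 439 and 45.7 CPM (log2 -3.27, SE 0.06), and nestin (NES), the filament of neural progenitors, 3748 and 177 CPM (log2 -4.41, SE 0.08). For LIN28B, IGF2BP1, SALL4 and NES the SKOV3 level lay between 1% and 5% of that in A2780, the range in which the low level described above lies. SKOV3 instead held CD44, the hyaluronan receptor (0.1 and 272 CPM, log2 11.38, SE 0.13), the adhesion molecule L1CAM (3.11 and 115 CPM, log2 5.21, SE 0.09) and the growth factor IGF2 (0.241 and 6.53 CPM, log2 4.77, SE 0.26).

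HOX genes, which encode position along the body axis, differed by cluster. Of 39 HOX genes in the table, 33 were tested, 20 called higher in SKOV3 and 10 lower. Apart from HOXA7, no HOXA gene had a count in A2780, and HOXA13 averaged 11 CPM in SKOV3, at least 124-fold above the floor. HOXD3, HOXD4, HOXD8, HOXD10 and HOXD13 were likewise at 0 in A2780, and HOXD8 averaged 8.17 CPM in SKOV3. The HOXC cluster was the reverse, with HOXC10 at 47.6 CPM in A2780 and 2.43 CPM in SKOV3 (log2 -4.29), HOXC9 at 74.3 and 11.1 CPM (log2 -2.75) and HOXC6 at 54.3 and 1.76 CPM (log2 -4.94). The HOXB cluster was expressed in both lines, with HOXB3 at 240 and 255 CPM (log2 0.09, not called) and HOXB9 at 94.3 and 39.8 CPM (log2 -1.25). All 8 HOXC genes tested were lower in SKOV3, at levels under 5% of A2780 for HOXC4, HOXC5 and HOXC6.

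Receptor tyrosine kinases and EGF-family ligands gave 19 called higher in SKOV3 and 11 lower of 32 tested, with a median log2 of 0.78. Beside ERBB2, SKOV3 held EGFR at 129, 117 and 120 CPM against 19, 15.9 and 18.1 CPM in A2780 (log2 2.79, SE 0.07). MET, the receptor of hepatocyte growth factor, had 8 counts in A2780 and averaged 91.2 CPM in SKOV3, a ratio of 1165 with a counting interval of 591 to 2700. The third receptor of the family went the other way: ERBB3, the kinase-impaired partner of HER2, stood at 99.8, 90.2 and 89.2 CPM in A2780 and at 5.06, 3.03 and 3.92 CPM in SKOV3 (log2 -4.52, SE 0.11). NRG1, the ligand of ERBB3 and ERBB4, averaged 35.8 CPM in SKOV3 against 2 counts in A2780, a ratio of 1840 with a counting interval of 509 to 15198. The collagen receptor DDR2 (994 and 33.3 CPM, log2 -4.90, SE 0.07), PDGFRA (110 and 9.91 CPM, log2 -3.46, SE 0.07), the Wnt receptor ROR2 (11.9 and 0.386 CPM, log2 -4.94, SE 0.18) and IGF1R (103 and 31 CPM, log2 -1.73, SE 0.07) were A2780 genes. In SKOV3, ERBB3, DDR2 and ROR2 were each under 5% of their A2780 level. AXL, at 53.7 and 54.6 CPM, was not called (log2 0.03).

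Regulators of the p53 pathway were compared before its targets. Of 20 genes of the p53 family and its regulators, 12 were called lower and 6 higher in SKOV3, with a median log2 of -0.55.

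MDM2, the ubiquitin ligase that degrades p53 and is also its target, stood at 163, 191 and 187 CPM in A2780 and at 44.6, 47.2 and 44.8 CPM in SKOV3 (log2 -1.99, SE 0.06). Its relative MDM4 averaged 80.2 and 17.6 CPM (log2 -2.19, SE 0.07). TP73, a family member, averaged 8.87 and 1.55 CPM (log2 -2.52, SE 0.15). CDKN2A, which encodes p16 and the MDM2 inhibitor ARF, averaged 2.28 and 0.724 CPM (log2 -1.66, SE 0.25). The damage kinase ATM was lower in SKOV3 (142 and 59.9 CPM, log2 -1.25, SE 0.06), while the kinases HIPK2 (17.9 and 49.9 CPM, log2 1.48, SE 0.07) and CHEK1 (18.4 and 28.8 CPM, log2 0.64, SE 0.10) were higher.

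Of 50 p53 target genes, all tested, 33 were called lower in SKOV3, 9 higher and 8 not called, with a median log2 of -1.15, where 38.7% of all genes were called lower. At least 2-fold lower were 27 of the 50. EDA2R, a death receptor of the TNF family, stood at 56, 64.9 and 65.7 CPM in A2780 and at 1.82, 1.2 and 1.83 CPM in SKOV3 (log2 -5.24, SE 0.11, adjusted p = 3.76e-29). The mitochondrial reductase FDXR stood at 128, 161 and 169 CPM in A2780 and at 10.8, 11.2 and 10.4 CPM in SKOV3 (log2 -3.82, SE 0.09). TIGAR, a fructose bisphosphatase, stood at 47.2, 45.4 and 47.8 CPM in A2780 and at 3.56, 3.49 and 2.7 CPM in SKOV3 (log2 -3.85, SE 0.10). In all 3 genes the lines were separate, with EDA2R in SKOV3 under 3% of its A2780 level.

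Among the other targets called lower, CDKN1A, the p21 inhibitor of cyclin-dependent kinases, stood at 6.82, 9.9 and 7.89 CPM in A2780 and at 3.72, 3.49 and 3.99 CPM in SKOV3 (log2 -1.14, SE 0.14). It was low in both lines, and the A2780 libraries spread more than the SKOV3 libraries. The repair gene DDB2 averaged 82.6 and 11.2 CPM (log2 -2.89, SE 0.07), the apoptosis gene BBC3, known as PUMA, 13.5 and 3.03 CPM (log2 -2.16, SE 0.14), and the quinone oxidoreductase TP53I3 52.1 and 6.42 CPM (log2 -3.02, SE 0.09). BAX differed least of these (28.8 and 22.2 CPM, log2 -0.37, SE 0.08).

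The 9 targets that were higher in SKOV3 were PMAIP1, TNFRSF10A, KITLG, PLK2, ALOX5, TP53I11, PLK3, IER5 and GADD45A. PMAIP1, which encodes the BH3 protein NOXA, stood at 0.117, 0.0555 and 0 CPM in A2780 and at 59.4, 56.7 and 59.6 CPM in SKOV3. With 6 counts in A2780, the ratio was 1000 with a counting interval of 459 to 2725. The TRAIL receptor TNFRSF10A had no count in A2780 and averaged 13.5 CPM in SKOV3, at least 152-fold above the floor, whereas its relative TNFRSF10B was lower in SKOV3 (104 and 48.1 CPM, log2 -1.11). KITLG, the ligand of KIT, averaged 0.211 and 29.2 CPM (log2 7.05, SE 0.18), and the kinase PLK2 11.2 and 194 CPM (log2 4.12, SE 0.07). PMAIP1 and TNFRSF10A were thus among the genes near 0 in A2780, apart from the rest of their list.

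**Figure D3:**
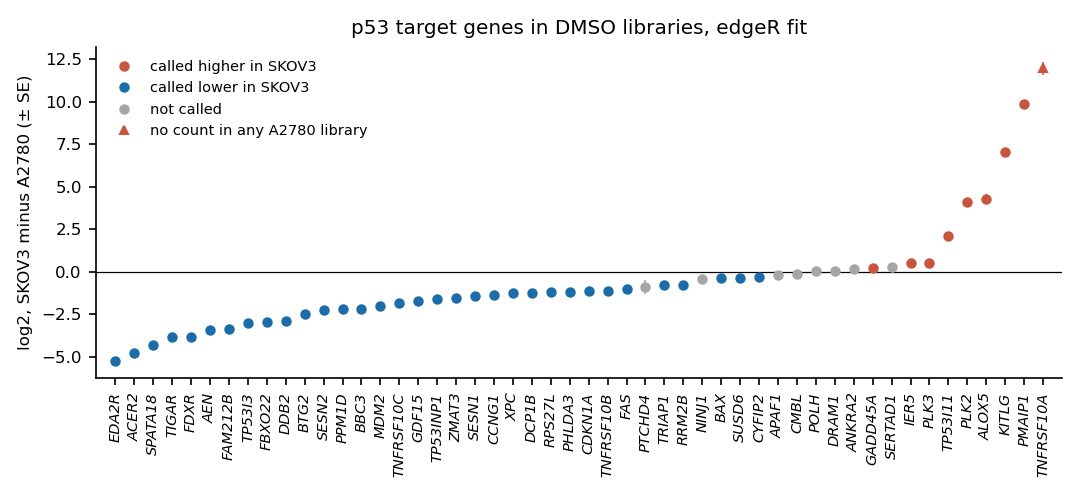
Log2 difference, SKOV3 minus A2780, with SE, for the 50 p53 target genes ordered by value; blue points were called lower in SKOV3, red higher and grey not called, and a triangle marks a gene with no count in A2780, whose fitted value is no bound. The 33 blue points run down to -5.24 (EDA2R), and PMAIP1, from 6 counts in A2780, stands near the upper end.

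Genes of G1 control split evenly, with 9 called higher and 9 lower of 23 tested (median log2 -0.10). The D cyclins and their kinases differed by paralog. CCND2 stood at 668, 695 and 729 CPM in A2780 and at 20.9, 18.4 and 18.8 CPM in SKOV3 (log2 -5.17, SE 0.07). CCND1 stood at 88.5, 86.2 and 92.4 CPM in A2780 and at 300, 309 and 326 CPM in SKOV3 (log2 1.81, SE 0.06). A2780 was the CCND2 line and SKOV3 the CCND1 line, with CCND2 in SKOV3 under 3% of its A2780 level. The kinase CDK6 had 2 counts in A2780 and 23.8 CPM in SKOV3, a ratio of 1219 with a counting interval of 337 to 10070, while CDK4 was close in both (103 and 84.3 CPM, log2 -0.29). MYC averaged 57.4 and 19.6 CPM (log2 -1.55, SE 0.07). Of 24 mitotic genes, 17 were called higher in SKOV3 and 7 lower, with a median log2 of 0.48. The proliferation antigen MKI67 averaged 1196 and 2139 CPM (log2 0.84) and the spindle gene ASPM 604 and 237 CPM (log2 -1.35).

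Among 30 genes altered in ovarian cancers, 12 were called higher and 13 lower in SKOV3 (median log2 -0.08). SMARCA2, an ATPase of the SWI/SNF remodeller, stood at 0.176, 0.111 and 0.128 CPM in A2780 and at 163, 156 and 160 CPM in SKOV3 (log2 10.14, SE 0.13). Its paralog SMARCA4 was present in both lines at 526 and 507 CPM and was not called (log2 -0.05). The mismatch repair gene PMS2 averaged 30.1 and 12.4 CPM (log2 -1.27). ARID1A was lower in SKOV3 (204 and 104 CPM, log2 -0.97, SE 0.06) and its paralog ARID1B higher (41.9 and 121 CPM, log2 1.53, SE 0.06).

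The regulators of NRF2 were tested before its targets. NFE2L2, which encodes NRF2, stood at 36.1, 39.1 and 39.6 CPM in A2780 and at 75.2, 73.8 and 76.6 CPM in SKOV3 (log2 0.97, SE 0.06, adjusted p = 5.68e-16). KEAP1, its inhibitor, stood at 33.4, 31.8 and 31.3 CPM in A2780 and at 25.6, 24.1 and 22.2 CPM in SKOV3 (log2 -0.43, SE 0.07). Neither gene overlapped between lines, and both differences were no larger than 2-fold. SQSTM1, the p62 protein that sequesters KEAP1, averaged 69.1 and 160 CPM (log2 1.21, SE 0.06). The small MAF partners differed in direction, with MAFF at 3.99 and 29.8 CPM (log2 2.90, SE 0.10) and MAFK at 23.2 and 9.23 CPM (log2 -1.33, SE 0.10). Of 17 regulators, 9 were called higher and 5 lower in SKOV3, with a median log2 of 0.48. NFE2L2 shares 17.6% of its exon length with another gene on its strand, and SQSTM1 20.7% with one on the opposite strand.

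Of 38 NRF2 target genes, 37 were tested, of which 29 were called higher in SKOV3, 3 lower and 5 not called, with a median log2 of 1.10, where 42.3% of all genes were called higher. NQO1 stood at 85.1, 83.7 and 90.9 CPM in A2780 and at 120, 122 and 120 CPM in SKOV3. All SKOV3 libraries were above all A2780 libraries, by 1.39-fold (log2 0.48, SE 0.06, adjusted p = 3.07e-09). NQO1 shares 17.7% of its exon length with a gene on the opposite strand. HMOX1, the inducible heme oxygenase, was low in both lines, at 1.93, 1.66 and 1.25 CPM in A2780 and 3.28, 3.6 and 2.11 CPM in SKOV3 (log2 0.88, SE 0.21, adjusted p = 0.000374). The quinone reductase was therefore well expressed in both lines before treatment.

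The highest differences among the targets were in carbonyl and drug metabolism. CBR1, a carbonyl reductase, stood at 0.234, 0 and 0.192 CPM in A2780 and at 121, 122 and 123 CPM in SKOV3 (log2 9.75, SE 0.16). The aldo-keto reductases AKR1C1, AKR1C2 and AKR1C3 averaged 0.182, 0.212 and 0.197 CPM in A2780 and 127, 60 and 124 CPM in SKOV3. They are near-identical, so the split among them is uncertain, but all 3 were below 0.4 CPM in every A2780 library. The export pump ABCC3 averaged 156 CPM in SKOV3 against 9 counts in A2780, a ratio of 1769 with a counting interval of 931 to 3868. The thioredoxin reductase TXNRD1 averaged 108 and 225 CPM (log2 1.06, SE 0.06). The 5 members not called were GCLM, SRXN1, GSR, ABCC2 and EPHX1, and the 3 lower ones TRIM16L, BLVRB and GPX2. GCLC, the catalytic subunit of glutathione synthesis, was called higher by 1.27-fold (24.3 and 30.8 CPM, log2 0.34, SE 0.08), while GCLM, its modifier subunit, was at 7.28 and 6.95 CPM (log2 -0.07, SE 0.12, adjusted p = 0.613).

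**Figure D4:**
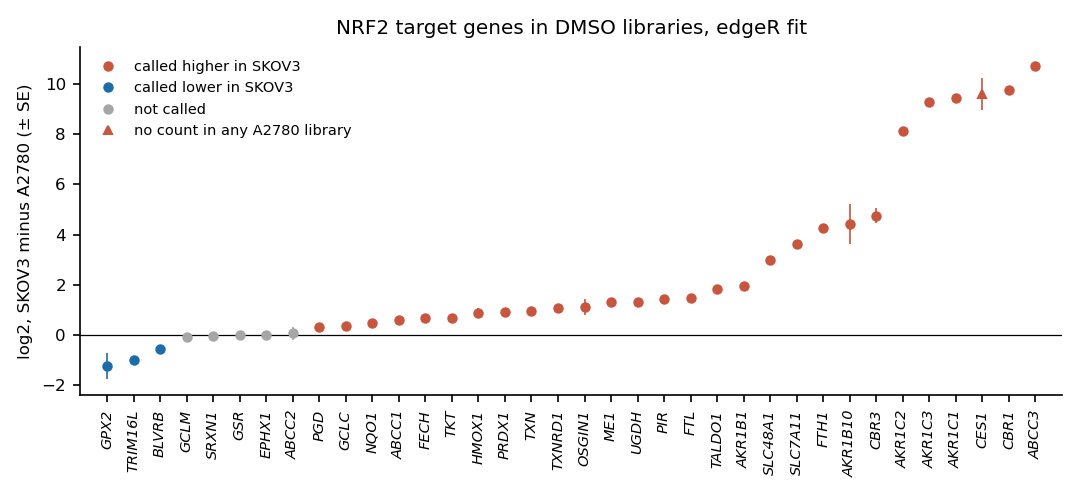
Log2 difference, SKOV3 minus A2780, with SE, for the tested NRF2 target genes, 1 of them not drawn, ordered by value; red points were called higher in SKOV3, blue lower and grey not called, and a triangle marks a gene with no count in A2780, whose fitted value is no bound. NQO1 stands at 0.48, and CBR1 (9.75) and ABCC3, from 9 counts in A2780, at the upper end.

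NRF2 binds the antioxidant response element, whose core TGACNNNGC was searched on both strands of the same RefSeq promoters. It occurred in 8 of 26 matched NRF2 target promoters (30.8%) and in 13.3% of all 35116. Of the 8 genes with a match, 6 were called higher and 1 lower in SKOV3, and of the 17 tested without, 13 and 1. The promoters of TXNRD1, a target that differed, and GCLM, a target that did not pass, are printed to show the element in both. The capitals mark the core or its complement. TXNRD1 lies at chr12:104215529-104215828 on the plus strand and GCLM at chr1:93909381-93909680 on the minus strand.
TXNRD1: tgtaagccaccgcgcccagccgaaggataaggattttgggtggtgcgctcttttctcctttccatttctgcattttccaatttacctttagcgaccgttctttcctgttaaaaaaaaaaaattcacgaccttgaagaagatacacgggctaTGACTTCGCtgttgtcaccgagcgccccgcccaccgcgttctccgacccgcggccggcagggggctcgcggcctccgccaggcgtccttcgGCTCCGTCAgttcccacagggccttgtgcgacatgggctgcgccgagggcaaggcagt
GCLM: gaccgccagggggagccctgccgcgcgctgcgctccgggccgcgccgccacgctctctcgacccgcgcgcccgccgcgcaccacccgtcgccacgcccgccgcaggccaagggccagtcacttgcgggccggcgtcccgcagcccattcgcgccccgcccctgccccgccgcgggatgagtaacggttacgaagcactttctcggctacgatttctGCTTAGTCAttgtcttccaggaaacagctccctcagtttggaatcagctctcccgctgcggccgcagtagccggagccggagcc
Elements further from the start lie outside these windows.

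Glutathione genes were near the background, with 16 called higher and 13 lower of 34 tested and a median log2 of 0.08, and single members differed strongly. SLC7A11, which imports cystine for glutathione, stood at 7.84, 6.82 and 8.08 CPM in A2780 and at 99.3, 89.3 and 94.9 CPM in SKOV3 (log2 3.64, SE 0.08, adjusted p = 1.31e-29). Its partner SLC3A2 averaged 102 and 259 CPM (log2 1.35, SE 0.07). GSTP1, a glutathione transferase, stood at 31.4, 27.9 and 28.9 CPM in A2780 and at 57.7, 63.8 and 68.7 CPM in SKOV3 (log2 1.11, SE 0.07). The peroxidase GPX1 (0.116 and 8.83 CPM, log2 6.18, SE 0.24) and the microsomal transferase MGST1 (0.124 and 6.3 CPM, log2 5.69, SE 0.29) were higher in SKOV3 by larger folds, from levels near 0 in A2780. Transferases of the M and T classes went the other way: GSTM2 averaged 80.6 and 7.98 CPM (log2 -3.34, SE 0.08), GSTM1 12 and 1.07 CPM (log2 -3.50, SE 0.15) and GSTT2 7.98 and 0.238 CPM (log2 -5.06, SE 0.23). GSTM1 and GSTM2 are similar and share 22.3% of the exon length of GSTM1, so their split is uncertain. OPLAH, which recycles oxoproline, averaged 8.85 and 0.18 CPM (log2 -5.60, SE 0.23).

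Of 24 thioredoxin, peroxiredoxin and superoxide dismutase genes, 14 were called higher and 6 lower in SKOV3 (median log2 0.47). TXNIP, the inhibitor of thioredoxin, stood at 22.5, 28.8 and 28.5 CPM in A2780 and at 474, 472 and 461 CPM in SKOV3 (log2 4.14, SE 0.08). The mitochondrial dismutase SOD2 averaged 51.5 and 286 CPM (log2 2.47, SE 0.06) and the cytosolic SOD1 319 and 628 CPM (log2 0.98, SE 0.06). Both the substrate TXN (54.6 and 104 CPM, log2 0.94) and its inhibitor were higher in SKOV3. Of 23 genes of NADPH supply, 13 were called higher and 7 lower (median log2 0.33). The pentose phosphate enzymes TALDO1 (log2 1.81), TKT (0.68) and PGD (0.33) were higher in SKOV3. The mitochondrial transhydrogenase NNT (31.5 and 6.34 CPM, log2 -2.32, SE 0.09) and the folate enzymes ALDH1L2 (25.1 and 2.78 CPM, log2 -3.17, SE 0.12) and MTHFD1 (210 and 101 CPM, log2 -1.05, SE 0.06) were lower.

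Ferroptosis suppressors gave 14 called higher and 9 lower of 27 tested (median log2 0.39) and drivers 15 and 13 of 31 (median log2 0.09), so neither list stood far from all genes in direction. GPX4, which reduces lipid hydroperoxides, stood at 164, 134 and 147 CPM in A2780 and at 270, 277 and 280 CPM in SKOV3 (log2 0.90, SE 0.06, adjusted p = 6.26e-15). AIFM2 stood at 4.62, 5.24 and 3.88 CPM in A2780 and at 9.6, 9.94 and 10.4 CPM in SKOV3 (log2 1.12, SE 0.12). Both suppressors were higher in all SKOV3 libraries. Others were lower: CBS, the transsulfuration enzyme, averaged 86.6 and 11 CPM (log2 -2.97, SE 0.07) and the ubiquinone-linked DHODH 16.5 and 6.61 CPM (log2 -1.33, SE 0.10).

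Of the drivers, ACSL4, which loads polyunsaturated fatty acids onto coenzyme A, stood at 32, 34.1 and 29.9 CPM in A2780 and at 55.5, 54.7 and 57.6 CPM in SKOV3 (log2 0.81, SE 0.07). LPCAT3, which inserts them into phospholipids, was lower (27.2 and 8.12 CPM, log2 -1.75, SE 0.09), with 65.6% of its exon length shared with EMG1 on the opposite strand. SAT1, the spermidine acetyltransferase, averaged 11.2 and 688 CPM (log2 5.94, SE 0.08), and the hypoxia factor EPAS1 0.305 and 35.3 CPM (log2 6.84, SE 0.15). GLS2, a glutaminase and p53 target, averaged 15.2 and 2.71 CPM (log2 -2.49, SE 0.12), with 77.1% of its exon length shared with SPRYD4. Counts of LPCAT3 and GLS2 are therefore uncertain.

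Iron genes were also near the background, with 14 called higher and 13 lower of 30 tested (median log2 0.07). Members differed in both directions. TFRC, the transferrin receptor, stood at 131, 113 and 116 CPM in A2780 and at 94.1, 82.7 and 89.4 CPM in SKOV3 (log2 -0.43, SE 0.06), TFR2 averaged 5.9 and 0.11 CPM (log2 -5.66, SE 0.28), and the ferrous importer SLC11A2 43.8 and 10.9 CPM (log2 -2.01, SE 0.08). The ferritin light chain FTL averaged 13.8 and 38.6 CPM (log2 1.48, SE 0.09) and the heavy chain FTH1 105 and 2013 CPM (log2 4.26, SE 0.07). FTH1 shares 62.4% of its exon length with BEST1 on the opposite strand and has many pseudogenes, so its value is uncertain. The copper oxidase ceruloplasmin (CP), which helps iron leave cells, averaged 1.5 and 157 CPM (log2 6.71, SE 0.09). CP shares 19.4% of its exon length with HPS3 on the opposite strand.

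Genes of drug transport and detoxification gave 15 called higher and 5 lower of 25 tested (median log2 0.78). The aldehyde dehydrogenase ALDH3A1 averaged 0.26 CPM in A2780 against 64.6 CPM in SKOV3 (log2 7.96, SE 0.14) and the metallothionein MT2A 2.96 and 207 CPM (log2 6.13, SE 0.15). UGT1A6, a glucuronosyltransferase, averaged 0.0594 and 32.2 CPM and shares 36.5% of its exon length with UGT1A3. The pump ABCB1 was low in both lines (1.14 and 0.629 CPM, log2 -0.85, SE 0.30).

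Antigen presentation and interferon genes were higher in SKOV3 in nearly all members: 35 of 38 tested were called higher and 1 lower, with a median log2 of 2.73. B2M, the class I light chain, stood at 26.2, 25 and 26.5 CPM in A2780 and at 358, 397 and 386 CPM in SKOV3 (log2 3.88, SE 0.07). The immunoproteasome subunit PSMB8 averaged 0.205 and 63.2 CPM (log2 8.23, SE 0.14) and NLRC5, the class I transactivator, 0.682 and 22 CPM (log2 4.99). In A2780, HLA-B and HLA-C averaged 74.6 and 225 CPM, and reads of these polymorphic relatives can be shared. IFIT2 was the lower member (30 and 9.62 CPM, log2 -1.64, SE 0.08).

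Inflammatory genes followed, with 19 called higher and 2 lower of 24 tested and a median log2 of 4.39 (4.25 with 3 genes of no A2780 count at their bounds). Of 29 listed, 9 averaged above 1 CPM in A2780 and 18 in SKOV3, so the filter on low counts favoured calls higher in SKOV3. Complement C3 averaged 3.78 CPM in A2780 against 608 CPM in SKOV3 (log2 7.34, SE 0.08), and the TRAIL ligand TNFSF10 0.516 and 92.4 CPM (log2 7.48, SE 0.11). The chemokine CXCL8 averaged 23.6 CPM in SKOV3 against 4 counts in A2780, a ratio of 603 with a counting interval of 235 to 2214. The subunits NFKB1 and NFKB2 themselves were not called (31 and 34.2 CPM, and 39.6 and 43.1 CPM). The 2 lower genes were IL11 and CD74.

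All 13 mitochondrially encoded protein genes were lower in SKOV3, with log2 values from -2.29 (MT-ND1) to -1.0 (MT-ND3) and a median of -1.63. Together they took 106457 to 127473 CPM in A2780 and 34656 to 42332 CPM in SKOV3. MT-ND1, a complex I subunit, stood at 8853, 9949 and 7628 CPM in A2780 and at 1804, 1993 and 1624 CPM in SKOV3 (SE 0.09). The 28 nuclear-encoded respiratory subunits did not share this: 8 were called higher and 12 lower, with a median log2 of -0.02. Sterol genes gave 7 higher and 12 lower of 25 (median log2 -0.11), with the regulator SREBF1 at 88.3 and 21.7 CPM (log2 -2.03, SE 0.07).

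**Figure D5:**
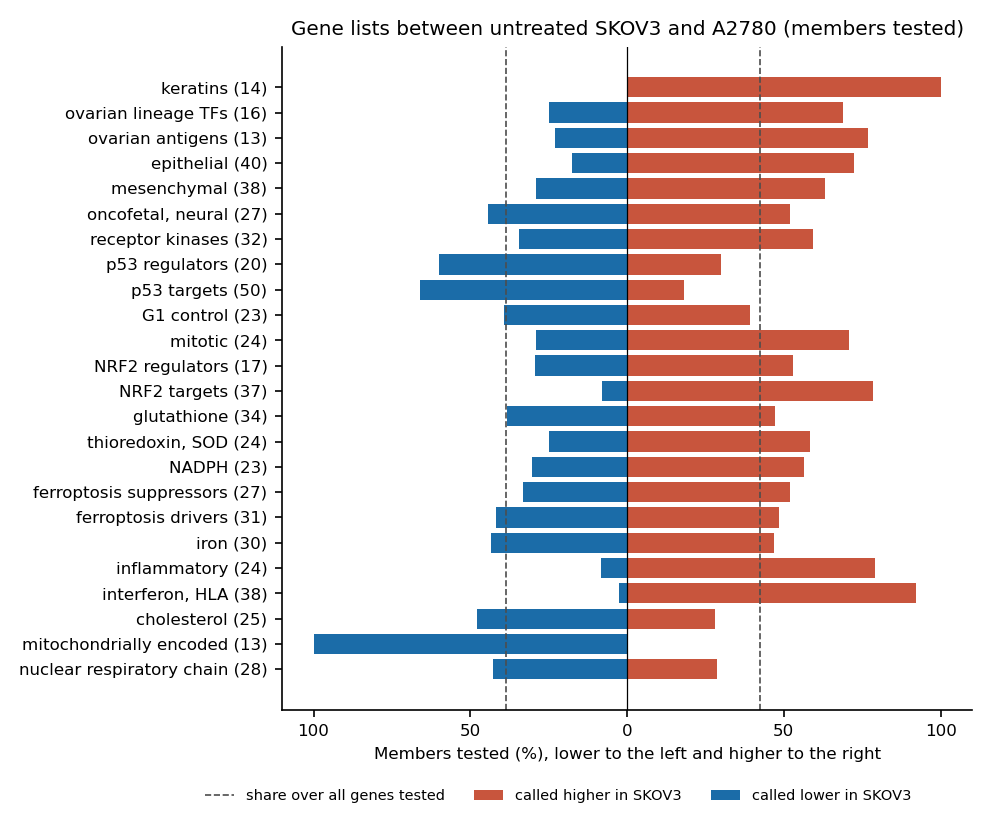
Percent of tested members of each of 24 gene lists called higher (red, right) or lower (blue, left) in SKOV3, with the number tested in brackets; dashed lines mark the shares over all genes tested, 42.3% higher and 38.7% lower. Keratins and mitochondrially encoded genes lie wholly on opposite sides, and p53 and NRF2 targets lean to opposite sides.

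The line difference was also measured in the treated libraries, which the baseline comparison does not use, in a joint fit of the 18 libraries over 23742 genes. There, 78.5% of genes were called between the lines at 20 mg/L and 76.9% at 40 mg/L. Of the 9849 genes called and at least 2-fold apart in DMSO, 99.2% had the same sign at 20 mg/L and 9358 genes were also called in that direction. At 40 mg/L the share was 98.0%, with 92.1% also called in that direction. By contrast, 10 genes at 20 mg/L and 50 at 40 mg/L were called in the opposite direction. Of the 187 named genes tested, 182 at 20 mg/L and 180 at 40 mg/L were called with the sign of the DMSO comparison. The 9849 genes and most of the named genes were chosen by their DMSO values. The treated libraries come from the same lines in the same media. Agreement in sign was therefore likely in advance and is no independent support for the baseline differences. ERBB2 had log2 values of 4.97 at 20 mg/L and 4.71 at 40 mg/L, and SLC7A11 3.12 and 3.14. NQO1 had 0.45 and 0.20. The line difference itself differed from that in DMSO for 21.6% of genes at 20 mg/L and 29.9% at 40 mg/L, by the interaction of line and dose. For ERBB2 the log2 difference at 40 mg/L minus that in DMSO was -0.70 (SE 0.08, adjusted p = 3.62e-09), for SLC7A11 -0.51 (adjusted p = 0.000897) and for NQO1 -0.29 (adjusted p = 0.0115). At 20 mg/L it was -0.45 for ERBB2 (adjusted p = 4.01e-05), -0.53 for SLC7A11 (adjusted p = 0.00106) and -0.04 for NQO1 (adjusted p = 0.824, not called).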

How the data were processed

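RNA from DMSO-treated A2780 and SKOV3 cells was made into strand-specific mRNA libraries (KC-Digital kit), per the labels' protocols. The submitters' processing notes name Trimmomatic 0.36 and build GRCh38. The authors deposited whole-number counts per gene, not normalized, in the layout of featureCounts, per the file headers. For the aligner, counter, annotation release and strand setting, nothing is given in the sources used here, so reads of genes that overlap on opposite strands cannot be told apart. Overlaps are stated for some genes only. Among the others, PSMB8 (21.2%), CBR1 (18.9%) and MARVELD3 (16.6%) share exon length with a gene on the opposite strand. Of the counts from 1 to 12, 74.4% to 76.2% were even, so small counts may not be independent. Identifiers turned into dates, 28 in all, held 0.166% to 0.194% of counts, and no gene is named from them. Replicate pairs differed beyond counting error (chi-square per degree of freedom 5.24 to 13.08).

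The 3 SKOV3 and 3 A2780 DMSO libraries were fitted alone in edgeR 4.0.16 (R 4.3.3) with TMM scaling, filterByExpr, robust quasi-likelihood F tests on 4 residual degrees of freedom and Benjamini-Hochberg adjustment over 21703 of 56303 genes, two-sided, called at an adjusted p under 0.05. A log2 value is log2 of the fold, SKOV3 over A2780, from the fit on the deposited counts, with SE from its F statistic. Levels are mean CPM of 3 libraries. Folds against no count use a floor of 3 counts per library, and ratios with 1 to 9 counts in a line an exact 95% interval, which takes each count as independent. Treated libraries entered a fit of 18 libraries with 12 residual degrees of freedom. The scripts were tested on simulated data. Alternatives were other scalings, filters and fold limits, DESeq2 1.42.0, a replicate block, halved counts, all 18 libraries and each library left out.

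The members, gene lists and tests were chosen with earlier results of these data known, so no list is independent evidence. Named genes were 28 key genes, the 3 highest and 3 lowest called members of each list with at least 5 CPM in the higher line and no overlap, the 10 highest and 10 lowest of all genes with at least 50 CPM, the 5 highest genes with no count in the other line, and HOX genes as counts and ranges. Other list members were named after their values were seen, to show the range of a list. Values of some list members, which enter the counts and medians of their lists, are not reported here.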

Additional observations from a re-analysis of the deposited data

Results flagged for a closer look

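For 4 of the named genes the line difference was called in opposite directions in DMSO and in treated libraries, and the interaction was called in the fit of all 18 libraries (edgeR, adjusted over all genes). HMOX1 was higher in SKOV3 in DMSO (log2 0.88) and lower at 20 mg/L (-1.89, interaction adjusted p = 9.82e-10), but higher again at 40 mg/L (0.62, interaction adjusted p = 0.452). MYC was lower in SKOV3 in DMSO (-1.55) and higher at 20 mg/L (0.31, interaction adjusted p = 3.48e-17) and at 40 mg/L (1.18, interaction adjusted p = 1.23e-23). KIF20A, a mitotic kinesin, was higher in SKOV3 in DMSO (1.22) and at 20 mg/L (1.71) and lower at 40 mg/L (-0.38, interaction adjusted p = 8.74e-16). TRIM16L, on the NRF2 target list, was lower in SKOV3 in DMSO (-1.02) and higher at 20 mg/L (0.37, interaction adjusted p = 9.92e-09) and at 40 mg/L (1.81, interaction adjusted p = 9.67e-18). Their DMSO values are those of the baseline comparison and hold for untreated cells only.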

How the results depend on the processing

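The count of genes called, 17590, ran from 15092 to 19572 over the alternatives, and from 17255 to 17811 with 1 library left out. Genes called and at least 2-fold apart (9849) ran from 7573 to 12049 over other scalings, filters and tools, from 10112 to 10370 with 1 library left out, and came to 5346 with a limit of 4-fold and to 8070 when edgeR tested against 2-fold. The genes with no count in one line, at 10 CPM 61 on in SKOV3 and 0 in A2780, came to 120 and 1 at 5 CPM and to 25 in SKOV3 at 20 CPM. The p53 targets called lower ran from 33 to 36, NRF2 targets called higher from 28 to 29, epithelial genes called higher from 29 to 30 and mesenchymal genes called lower from 10 to 11. Of 2802 values for 187 named genes, 2799 kept direction and call and 3 lost the call, all for VIM; no direction reversed. The share of calls higher in SKOV3 was 52.2% and ran from 48.2% to 54.3%, and the median log2 of all genes from -0.057 to 0.087. With a replicate block 17293 genes were called. Deviations of same-numbered libraries correlated at -0.02 to 0.03, so no shared deviation was seen. Whether libraries of the same number were handled together is not stated. Per-length levels (TPM) were not used between lines, since their median log2 ratio was 0.58 and mitochondrial genes held 49.8% to 54.2% of TPM in A2780 and 19.1% to 22.2% in SKOV3. At this depth a gene under 0.0886 CPM in A2780 cannot be told from no expression.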

Other observations

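Along the autosomes, the median log2 difference ran from -0.45 on chromosome 7 to 0.46 on chromosome 6. Of the 10-Mb windows with at least 20 tested genes, the highest median was at 20 to 30 Mb of chromosome 19, at 6.89 (81 genes, 63 called higher and 7 lower in SKOV3). With the 23 genes of no A2780 count at their bounds it was 3.13, still the highest. The next was 1.68 at 60 to 70 Mb of chromosome 18, and the lowest were -1.64 at 60 to 70 Mb of chromosome 9 and -1.32 at 20 to 30 Mb of chromosome 15. The chromosome 19 window was singled out after its value was seen.

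That window holds a cluster of zinc finger genes, most of which encode repressors of the KRAB family. Of its 30 tested genes named ZNF and a number, 28 were called higher and 1 lower in SKOV3, with a median log2 of 8.13, or 6.85 with the 5 genes of no A2780 count at their bounds. They summed to 77.1 to 81.2 CPM in A2780 and to 407 to 425 CPM in SKOV3. ZNF738 and ZNF626 had no count in any A2780 library and averaged 23.3 and 17.9 CPM in SKOV3, at least 263-fold and 203-fold above the floor. ZNF486 averaged 0.0195 and 34.2 CPM, and ZNF43 0.0185 and 20.4 CPM. Some members of the cluster were expressed in A2780: ZNF254 averaged 22.4 and 23.7 CPM and was not called (log2 0.08), and ZNF91 averaged 12.3 and 48.9 CPM (log2 2.00). Zinc finger genes elsewhere on chromosome 19 had a median log2 of 0.50 (233 tested) and those on other chromosomes -0.11 (271 tested). In the treated libraries the 30 genes had fitted medians of 8.32 at 20 mg/L and 7.87 at 40 mg/L. Members of the family are similar in sequence, so the split of reads among them is uncertain.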
